A study of Mus musculus with 6 samples.

Results

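The HOX genes and the noncoding RNAs of the HOX clusters were examined in RNA-seq libraries of mouse dermal fibroblasts with and without stabilized β-catenin. Members were the genes of the all-gene table whose symbols begin with Hoxa, Hoxb, Hoxc or Hoxd, together with Hotair, Hottip and Hotairm1, which gave 48 of its 41126 genes. Of these, 39 are coding HOX genes. The other 9 are noncoding, namely Hotair, Hottip, Hotairm1 and the antisense genes Hoxaas2, Hoxaas3, Hoxa11os, Hoxb3os, Hoxb5os and Hoxd3os1. All 9 noncoding members also appear in a separate lncRNA table of 5385 genes. It is on a scale of its own.

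Each group held 3 libraries, numbered 0, 1 and 2 in the titles, and the values below follow that order. Control cultures are labelled AdGFP with genotype +/+, and gain-of-function (GOF) cultures are labelled AdCre with genotype Ctnnb1{delta}ex3/+, an allele whose recombined product lacks the exon that carries the phosphorylation sites for β-catenin degradation. All 6 cultures were dermal fibroblasts of strain CD1, C57Bl6 at postnatal day 4, grown with 10% serum, and the paper places their origin in ventral skin. Virus and recombined allele changed together, so their effects cannot be told apart. The treatment protocol in the labels gives adCre at 366 to 500 MOI for 6 h for every culture, and the paper describes controls that carry the same transgene, so the sources disagree on the control virus and genotype. The promoter that drives Cre is not given in the sources used here. The titles also begin with a number, taken here to mark the animal. By it, Control 0 and GOF 2 came from the same animal, Control 2 and GOF 0 from another, and Control 1 and GOF 1 from an animal each. Cultures of the same animal share its inherited genotype. On this reading, the different genotype labels of such cultures cannot both give the inherited one.

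HOX genes encode homeodomain transcription factors that give cells their position along the body axes. They lie in 4 clusters, HoxA to HoxD, in which genes at the low-numbered end are used in anterior structures and those at the high-numbered end in posterior and distal ones. Genes with the same number in different clusters are paralogs of common origin. Fibroblasts of the skin keep a HOX pattern that reflects the body site they came from. Hotair, made within HoxC, and Hottip, made beyond Hoxa13, are known from distal and posterior fibroblasts, whereas Hotairm1 lies at the anterior end of HoxA.

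On GRCm38, the members span chr11:96194316-96368256 for HoxB, chr15:102921103-103036852 for HoxC and chr2:74668310-74765142 for HoxD. Upstream windows of 250 bases were present in the RefSeq promoter table (GRCm38.p6) for 26 of the 48 members, in 28 windows. β-catenin acts on genes through TCF/LEF factors, whose core recognition letters include CTTTGA, read on the other strand as TCAAAG. These letters occurred in 3 of the 28 windows, before Hoxd8, Hoxd12 and a start of Hoxa10, or 10.7%, against 13.8% of all 32851 windows of the same length. A match is only a description of the letters in a window. Sequences are shown for HoxD members, since that cluster held the largest fitted rise (Hoxd10), a gene at or near 0 in the Control libraries (Hoxd1) and a gene whose GOF libraries all lay below the Control libraries (Hoxd8). All are on the plus strand and run 5′ to 3′ up to the base before the start, with matches to the core letters in capitals. The Hoxd8 window, chr2:74704365-74704614, held the letters at 153 to 148 and at 143 to 138 bases before the start.
Hoxd8: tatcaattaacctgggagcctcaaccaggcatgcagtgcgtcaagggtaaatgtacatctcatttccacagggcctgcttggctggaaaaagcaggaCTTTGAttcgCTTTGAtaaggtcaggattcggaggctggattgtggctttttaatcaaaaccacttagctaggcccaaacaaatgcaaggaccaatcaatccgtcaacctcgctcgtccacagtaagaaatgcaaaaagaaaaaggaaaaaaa
The Hoxd1 window, chr2:74762730-74762979, held no match and contains an exon of the lncRNA Haglr, which is made from the other strand.
Hoxd1: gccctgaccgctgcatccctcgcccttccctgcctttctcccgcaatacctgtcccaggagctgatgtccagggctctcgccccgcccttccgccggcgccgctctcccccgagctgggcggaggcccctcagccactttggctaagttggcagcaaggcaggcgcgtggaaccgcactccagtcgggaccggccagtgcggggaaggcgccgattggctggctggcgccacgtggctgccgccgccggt
The Hoxd10 window held no match either. Only its last 30 bases are given, chr2:74691861-74691890, since an exon of a longer RefSeq model of Hoxd10 covers the window.
Hoxd10: tctcattggcttggttgtcatgtggtcggc
Windows for Hoxc5 and Hoxc13 were not in the table.

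The all-gene table held 35980831 to 42834467 fragments per library. In the lncRNA table there were 1022957 to 1726901. Axin2, a direct target of β-catenin, was at 0.144, 0.136 and 0.177 FPKM in the Control libraries and at 19.2, 14.4 and 18.7 FPKM in the GOF libraries, in accordance with their labels. Ctnnb1 was at 246 to 297 FPKM throughout, and its gene total does not show the loss of 1 exon. Fibroblast markers were high in every library, with a summed level of 2050 to 2770 FPKM over 7 genes in Control and 840 to 1410 FPKM in GOF. Col1a2 and Dcn, which make up most of the sum, were called lower, and the others were not called. Between Control and GOF, mean Col1a1 was the same (166 FPKM). On the means, Dpt (77.3 and 115 FPKM) and Twist2 (47.5 and 77.1 FPKM) were higher in GOF. Pdgfra (53.9 and 30.8 FPKM) and Lum (145 and 69.1 FPKM) were lower. Each of these genes overlapped between groups, and Twist2 in GOF 2 (42.2 FPKM) lay below the Control libraries (45.6 to 48.9 FPKM). Markers of keratinocytes (5 genes, 0.388 to 0.501 FPKM summed), skeletal muscle (4 genes, at most 0.131) and adipocytes (3 genes, at most 0.0946) were at or near 0. In the macrophage list Csf1r was higher in GOF (1.05 to 1.46 FPKM in Control, 3.38 to 4.79 FPKM in GOF), while Ptprc and Adgre1 held at most 0.12 FPKM, and in the endothelial list Kdr was higher and Tek lower, with sums of 2.79 to 3.4 FPKM in Control and 2.36 to 4.17 FPKM in GOF. Their part in the HOX values was not tested. In bulk libraries, fewer cells of a type and less RNA per cell cannot be told apart. Control 0 stood apart from Control 1 and 2, and GOF 2 from GOF 0 and 1: over genes, the chi-square per degree of freedom was 141 and 187 for the pairs with Control 0 against 24.7 for the pair without it, and 136 and 137 for the pairs with GOF 2 against 62.2.

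The fibroblasts expressed HOX genes of all 4 clusters, and the 5 with the highest mean levels lay at positions 6 to 9. Over all 6 libraries, the mean level was at least 10 FPKM for 5 of the 39 coding genes, at least 1 FPKM for 22 and under 0.1 FPKM for 9. FPKM is corrected for transcript length, so levels can be set beside each other between genes, as far as fragments were assigned to the right gene. Some members share exon sequence, such as Hoxc5 with Hoxc10 and Hoxd3 with Hoxd4. Hoxc8, which patterns the thoracic region, had the highest mean level over the 6 libraries, at 27.4, 28.7 and 30.2 FPKM in Control and 37.9, 40.5 and 33.9 FPKM in GOF. Hoxc6 exceeded it in GOF 0, at 45.2 FPKM. In HoxD, the highest was Hoxd8, at 20.1, 19.9 and 19.1 FPKM in Control and 15.8, 18.6 and 14.6 FPKM in GOF. Its GOF libraries all lay below the Control libraries, without a call (edgeR log2 fold change −0.28, adjusted p = 0.188).

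Hoxb9, a paralog of the thoracic group, led HoxB, with 12.5, 14.5 and 15 FPKM in Control and 22.3, 21.3 and 18.2 FPKM in GOF. It was followed by Hoxb7 and Hoxb2, with mean Control levels of 12.8 ± 0.564 and 10.4 ± 1.76 FPKM (SD, n = 3). HoxA was led by Hoxa7, a gene of the middle of the cluster, at 7.86, 8.62 and 8.27 FPKM in Control and 6.86, 7.28 and 6.48 FPKM in GOF. Its GOF libraries were all the lower ones, and the fitted change was −0.18 (edgeR adjusted p = 0.414). Hoxa10, a posterior gene, matched it in mean Control level (8.25 ± 3.65 against 8.25 ± 0.377 FPKM, SD, n = 3), but varied far more among libraries.

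Some members at the ends of the clusters were not detected. Hoxb1, an anterior gene of the hindbrain, and Hoxc12 and Hoxd12, at the posterior end, had no fragment in any library. Hoxd11, a gene of the limb and posterior trunk, had at most 2 fragments per library and Hoxc11 at most 12. Levels did not fall evenly along a cluster: Hoxb2 was at a mean of 10.4 FPKM in Control between Hoxb1 at 0 and Hoxb3 at 1.66, and Hoxc13 at 0.333 lay beyond Hoxc12 at 0.

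**Figure D1:**
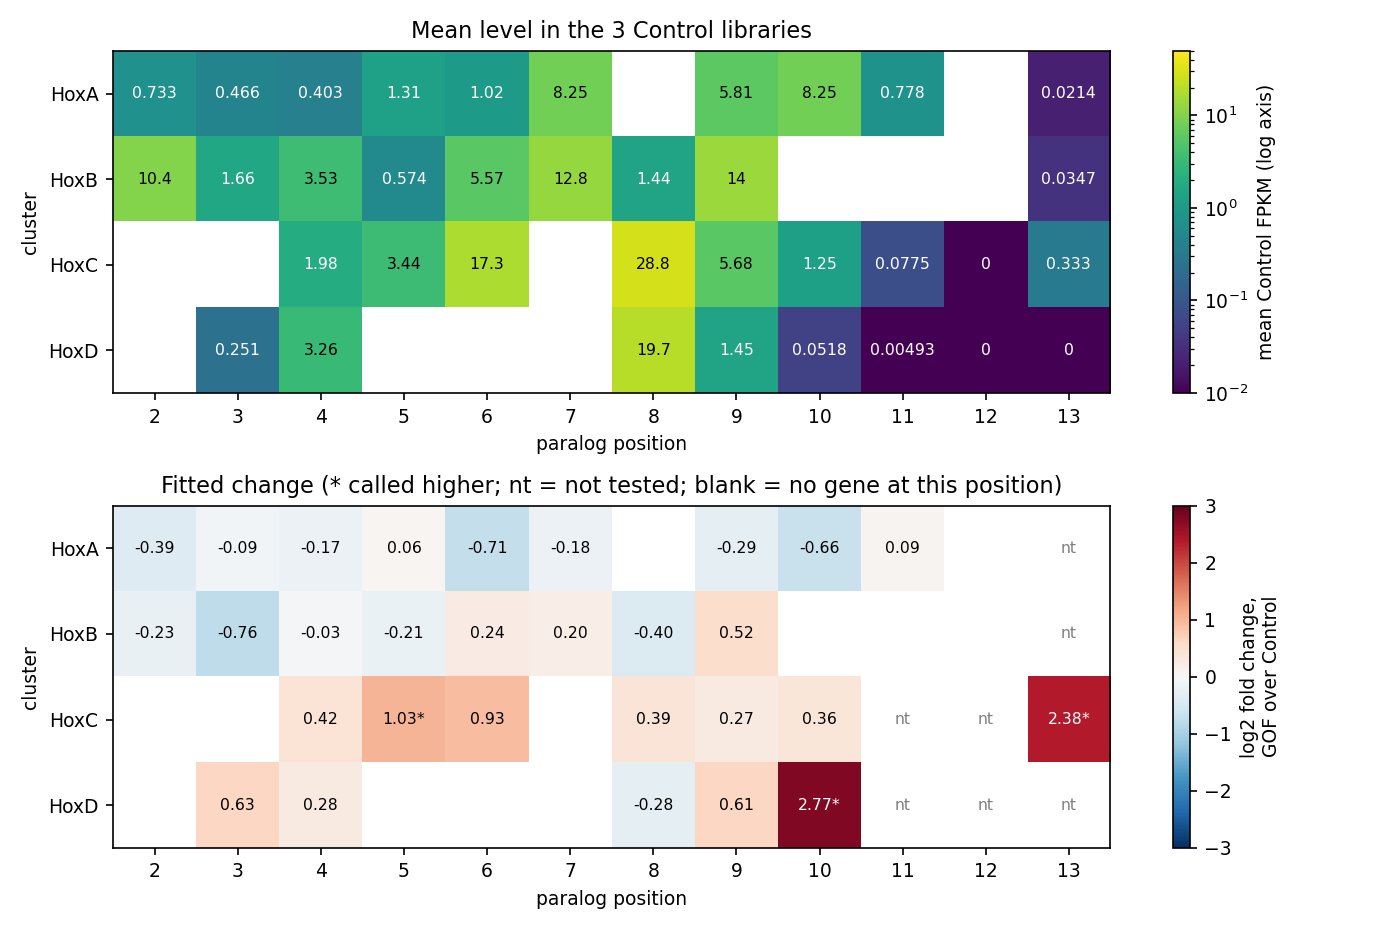
Coding HOX genes by cluster (rows) at paralog positions 2 to 13 (columns): the upper panel gives the mean FPKM of the 3 Control libraries, coloured on a log axis on which levels under 0.01 share the darkest colour, and the lower panel the fitted log2 fold change of GOF over Control. The 5 highest Control levels lie at positions 6 to 9, and asterisks mark Hoxc5, Hoxc13 and Hoxd10, which were called higher.

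Stabilized β-catenin cultures had more Hoxd10, Hoxc13 and Hoxc5 RNA than the controls. A low-count filter left 37 of the 48 members to be tested. A gene was called when its adjusted p was under 0.05 and its fold change exceeded 2. Called higher were 4 members, 3 of which are described here, where 6.69% of all 15462 genes tested were called higher. Hoxd10, counted among the 4, passed the low-count filter through its GOF libraries alone. No member was called lower, where 5.64% of all genes were (0 members by edgeR and 0 by DESeq2). At an unadjusted p under 0.05 (edgeR), 2 members were lower and 7 higher. The share of all genes at that threshold was not counted. The median log2 fold change over the tested members was 0.09, beside −0.02 over all genes tested. No test of the members as a group was made.

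Hoxd10, which shapes the limb and the lumbar spinal cord, was almost silent in the controls, at 0.029, 0.0499 and 0.0765 FPKM, and was at 0.342, 0.324 and 0.444 FPKM in GOF. The fragments behind these values numbered 2, 4 and 6 in Control and 27, 25 and 34 in GOF. Every GOF library was thus above every Control library, by 7.14-fold on the means. The fitted log2 fold change was 2.77 (SE 0.41, edgeR adjusted p = 0.0037). Hoxd10 was the only tested member that reached the minimum of the low-count filter in GOF libraries alone, so it could be tested only if it was higher there.

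Hoxc13 is best known from hair and nail, where it drives keratin genes. It was at 0.398, 0.375 and 0.226 FPKM in Control and at 2.09, 0.883 and 2.31 FPKM in GOF. All GOF libraries lay above the controls, with GOF 1 nearer to them than the other two. The log2 fold change was 2.38 (SE 0.44, edgeR adjusted p = 0.00936), and the means differed by 5.29-fold. Keratinocyte markers summed to 0.388 to 0.451 FPKM in Control and 0.428 to 0.501 FPKM in GOF. Most of this was Krt10 (0.311 to 0.487 FPKM), the one of the 5 that could be tested, with a log2 fold change of −0.08 (edgeR adjusted p = 0.882). Krt5 had 7 fragments in GOF 0 and at most 1 in any other library. The part of keratinocytes in the Hoxc13 values was not tested.

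Hoxc5, a gene of the neck and upper trunk, rose from 2.62, 3.79 and 3.90 FPKM in Control to 7.58, 7.94 and 5.51 FPKM in GOF. No GOF library overlapped the controls, and the log2 fold change was 1.03 (SE 0.24, edgeR adjusted p = 0.0229). In the GENCODE annotation the Hoxc5 gene runs from 102967443 to 103017429 on chromosome 15 and shares exon sequence with Hoxc10 on the same strand. Hoxc10 itself was at 1.77, 0.766 and 1.23 FPKM in Control and 2.49, 0.636 and 1.77 FPKM in GOF. These groups overlapped, with both extremes of the 6 libraries in GOF.

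The call of Hoxc5 lay close to the thresholds and moved with single libraries and with the scaling. Under library totals its log2 fold change was 0.98, which was not called. Without Control 1, the adjusted p (edgeR) was 0.0514. Leaving out Control 0, GOF 0 or GOF 1 also ended the call, with log2 fold changes of 0.83, 0.95 and 0.92. With both libraries of the animal that stood apart removed (Control 0 and GOF 2, chosen after seeing the data), 5 members were called higher, Hoxc5, Hoxc6, Hoxc13 and Hoxd10 among them. In that fit, 1127 of all 15462 genes tested were called higher.

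**Figure D2:**
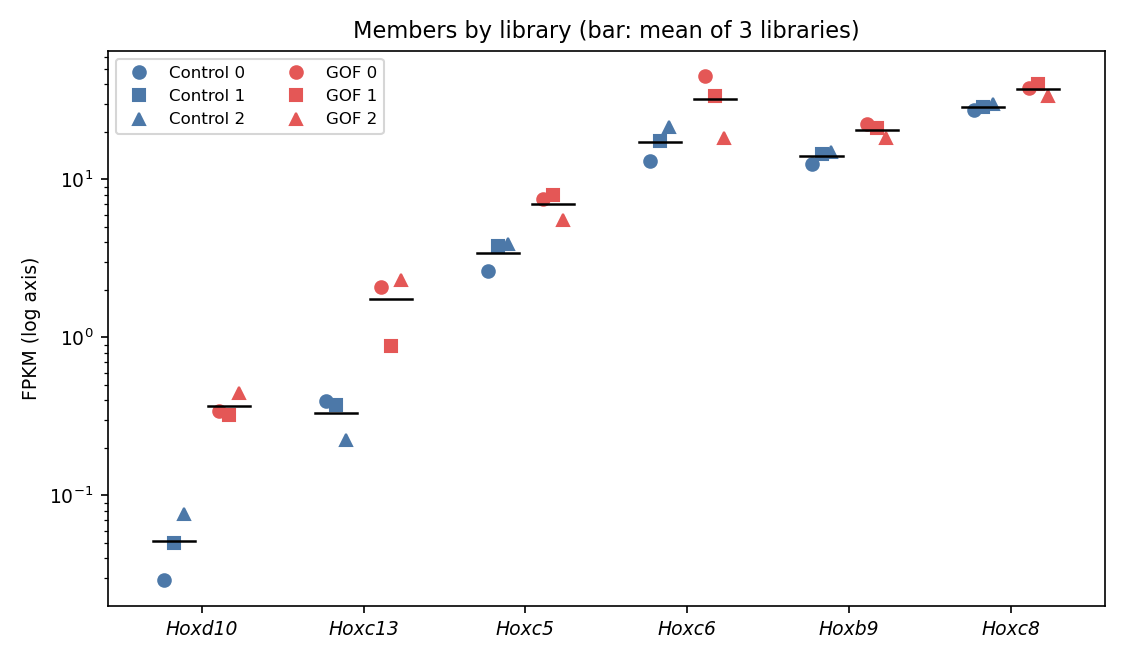
FPKM of 6 members in each library on a log axis, with Control in blue and GOF in red, a marker shape per replicate number and a bar at the mean of 3 libraries. GOF points lie above all Control points for every gene shown except Hoxc6, in which GOF 2 (18.2 FPKM) falls within the Control range of 13.1 to 21.4 FPKM.

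All 7 tested HoxC genes had a fold change above 0, with a median log2 value of 0.42, although Hoxc10 was at −0.09 without GOF 0. In HoxD, 5 of 6 tested members lay above 0, with a median of 0.50, and 48.5% of all genes tested did. Summed over its 9 coding genes, HoxC was at 52.4, 58.3 and 65.9 FPKM in Control and 106, 94.0 and 69.2 FPKM in GOF. Every GOF sum was above every Control sum, although GOF 2 was only slightly above Control 2. As a share of all coding HOX FPKM, HoxC took 33.2, 36.5 and 39.4% in Control and 50.3, 46.7 and 41.5% in GOF.

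Hoxc6, a thoracic gene, made the largest part of this difference in FPKM, with 13.1, 17.4 and 21.4 in Control and 45.2, 33.6 and 18.2 in GOF. GOF 2 lay within the Control range and the other GOF libraries above it. The fitted change was 0.93 (SE 0.33) and was not called (edgeR adjusted p = 0.0837). Without GOF 2 it was 1.21 and passed both thresholds (edgeR adjusted p = 0.0165). Hoxc8 was higher in all GOF libraries, by 1.3-fold on the means, with a log2 fold change of 0.39 (edgeR adjusted p = 0.0841).

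Among the rest of HoxC, Hoxc4, at the anterior end, was at 1.18, 2.23 and 2.54 FPKM in Control and 3.29, 3.20 and 1.74 FPKM in GOF. Hoxc9 was at a mean of 5.68 ± 0.675 FPKM in Control and 6.94 ± 1.18 FPKM in GOF (SD, n = 3). Both overlapped between groups, and neither was called (log2 fold changes 0.42 and 0.27). The flanking genes Calcoco1 and Smug1 had log2 fold changes of −0.51 and −0.05 and were not called.

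**Figure D3:**
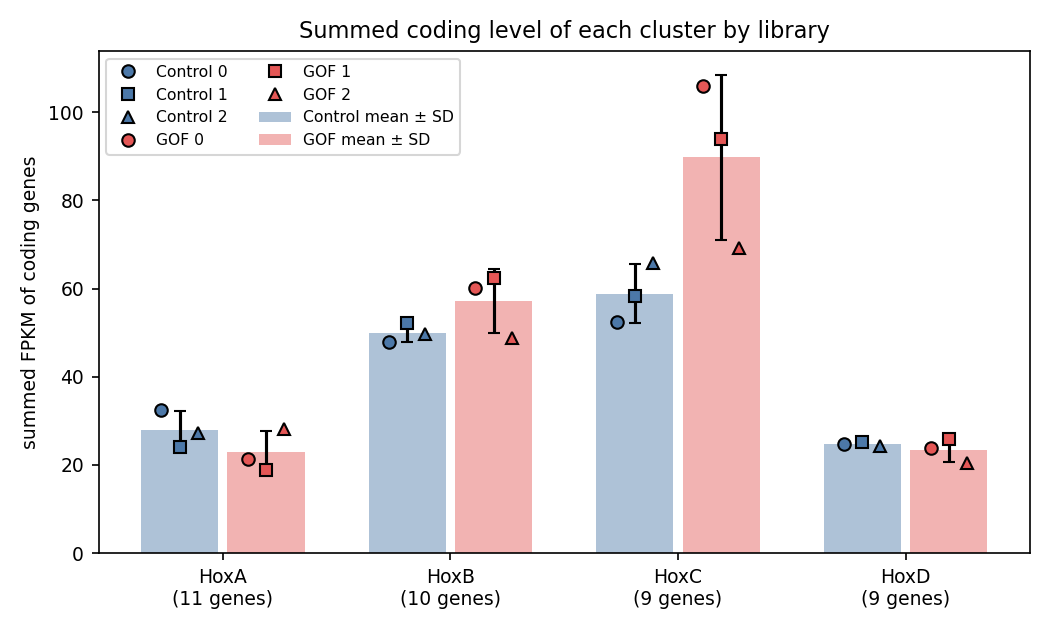
Summed FPKM of the coding genes of each cluster, with bars for the mean of 3 libraries, error bars for the SD and a point per library. Only the HoxC sums are separate between groups (52.4 to 65.9 in Control, 69.2 to 106 in GOF), while HoxA, HoxB and HoxD overlap.

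In HoxB, Hoxb9 passed the adjusted p but not the fold threshold, with a log2 fold change of 0.52 (SE 0.14, edgeR adjusted p = 0.0319). At an adjusted p alone, 11.1% of all genes were higher in GOF, and 5 members were. Its GOF libraries, at 18.2 to 22.3 FPKM, all exceeded the Control libraries. The other 7 tested coding genes of HoxB lay between −0.76 for Hoxb3 and 0.24 for Hoxb6. Hoxb3, a gene of the hindbrain and neck, was at 1.15, 1.72 and 2.12 FPKM in Control and 1.02, 1.25 and 0.725 FPKM in GOF, without a call (edgeR adjusted p = 0.11). The groups overlapped in Control 0 and GOF 1.

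Of the 10 tested coding genes of HoxA, 7 had a fold change below 0, and none was called lower. Hoxa6, a gene of the middle of the cluster, was at 0.939, 1.14 and 0.982 FPKM in Control and 0.526, 0.715 and 0.667 FPKM in GOF. Its groups did not overlap, and the log2 fold change was −0.71 (SE 0.31, edgeR adjusted p = 0.144). Over all tested members, 6 had every GOF library above every Control library and 4 had every one below. Among all genes tested these patterns held for 20.3% and 19.2%.

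No tested paralog of a called gene was itself called, where 6.69% of all genes tested were called higher and 5.64% lower. With so few paralogs tested, this is no result about paralogs. At position 5, Hoxa5 was at 1.03, 1.75 and 1.14 FPKM in Control and 1.34, 1.85 and 0.939 FPKM in GOF. Hoxb5 was at 0.281, 0.652 and 0.788 FPKM in Control and 0.588, 0.568 and 0.220 FPKM in GOF. Both overlapped between groups, with log2 fold changes of 0.06 and −0.21, beside 1.03 for Hoxc5. At position 10, Hoxa10 was at −0.66 and Hoxc10 at 0.36, beside 2.77 for Hoxd10. The differences between paralogs were not tested.

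At position 13, the lowest GOF library held more fragments than the highest Control library for each of the 4 paralogs, a pattern noticed after the values were seen. By FPKM, in which the 4 paralogs had the same order, it held for 20.3% of all genes tested. By fragments, it held for 5.51% of the 9032 genes that had a fragment but were under the low-count filter. Some of those had too few fragments to show it. Hoxa13, which patterns digits and the genital tubercle, had 5, 0 and 0 fragments in Control and 7, 8 and 9 in GOF. Hoxb13, a gene of the tail and prostate, had 2, 1 and 6 in Control and 8 in each GOF library. Hoxd13, a gene of the digits, had no fragment in Control and 3, 4 and 8 in GOF. These 3 genes fell short of the low-count filter, and only Hoxc13 was tested. The counts are small, and a count of 0 fragments allows up to 3 by counting error alone.

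Hoxd1, at the anterior end of HoxD, was also listed higher throughout GOF, with 2, 0 and 0 fragments in Control and 10, 13 and 4 in GOF. With the low-count filter removed, Hoxd13 and Hoxd1 were also called higher (edgeR adjusted p = 0.0341 and 0.0435), which brought the called members to 6. In that fit, 1187 of all 24494 genes tested were called higher. No fold is given for Hoxd13 and Hoxd1, since every Control library held at most 3 fragments. Haglr, the lncRNA that starts beside Hoxd1 on the other strand, was at 0.196, 0.0711 and 0.097 FPKM in Control and 0.417, 0.549 and 0.262 FPKM in GOF, without a call (log2 fold change 1.27, edgeR adjusted p = 0.0749). Its GOF libraries all exceeded the controls.

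Of the 11 members not tested, Hoxa13, Hoxb13, Hoxd13 and Hoxd1 are described above, and Hoxb1, Hoxc12 and Hoxd12 were at 0 throughout. Hoxd11 had 1, 0 and 1 fragments in Control and 0, 0 and 2 in GOF. Hoxc11, a gene of the hindlimb and lumbosacral region, had 12, 2 and 1 in Control and 2, 1 and 10 in GOF. Its high libraries were Control 0 and GOF 2, which share an animal. Hotair and Hottip complete the list and are given with the noncoding members.

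For several HOX genes, the libraries were ordered by animal in both groups. Hoxa11, a gene of the forearm and the posterior trunk, was at 1.42, 0.174 and 0.740 FPKM in Control and 0.807, 0.262 and 1.42 FPKM in GOF. Its level was the same in Control 0 and GOF 2, and lower by a like amount in Control 2 and GOF 0 of the other animal. Hoxa10, its neighbour, was at 12.3, 5.16 and 7.31 FPKM in Control and 5.21, 1.93 and 9.34 FPKM in GOF. Control 0 exceeded Control 2 by 1.68-fold, and GOF 2 exceeded GOF 0 by 1.79-fold. Hoxa11os, the antisense gene of Hoxa11, followed with 3.04, 0.611 and 1.10 FPKM in Control and 1.2, 0.359 and 2.53 FPKM in GOF. In all 3 genes, the lowest libraries of each group were Control 1 and GOF 1.

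Other members had the reverse order, lower in Control 0 and GOF 2. Hoxb5, of HoxB, was 0.357 times as high in Control 0 as in Control 2 and 0.374 times as high in GOF 2 as in GOF 0. For Hoxc4 the FPKM ratios were 0.466 and 0.528, and for Hoxc6 0.613 and 0.404. Hoxd3os1 and Hoxaas2 were also over 1.5-fold lower in both groups. Counts were made on fragments scaled between libraries, not on FPKM. On that measure, 3 of the 37 tested members were over 1.5-fold higher in the animal of Control 0 and GOF 2 in both groups. Over 1.5-fold lower were 5, where 3.15% and 6.16% of all genes tested were higher and lower. By FPKM, Hoxb8 (ratios 0.611 and 0.442) and Hoxaas3 (0.466 and 0.649) were also lower by that factor.

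Over the 37 tested members, the log2 difference between the animals in Control and that in GOF correlated with Pearson's r = 0.67 and Spearman's rho = 0.65, beside 0.53 and 0.51 over all 15462 genes tested. These points come from the same 4 libraries and are not independent. With only 2 animals that gave a culture to each group, the difference between animals was not tested. Sox10, a Schwann cell marker, was at 0.377, 0.230 and 0.00925 FPKM in Control and 0.204, 0.127 and 0.417 FPKM in GOF, so it was also highest in Control 0 and GOF 2. Its part in the HOX differences was not tested.

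Within each of these animals, Hoxc13, Hoxc5 and Hoxd10 differed between GOF and Control in the same direction. Hoxc13 was 5.81-fold higher in GOF 2 than in Control 0 and 9.23-fold higher in GOF 0 than in Control 2. For Hoxc5 the folds were 2.11 and 1.94. Hoxd10 was 4.47-fold higher in GOF 0 than in Control 2, and Control 0 had too few fragments for a ratio. With the animal as a block, the members called higher numbered 4, as without it. Over all 15462 genes tested, 1096 were called higher with the block and 1034 without.

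**Figure D4:**
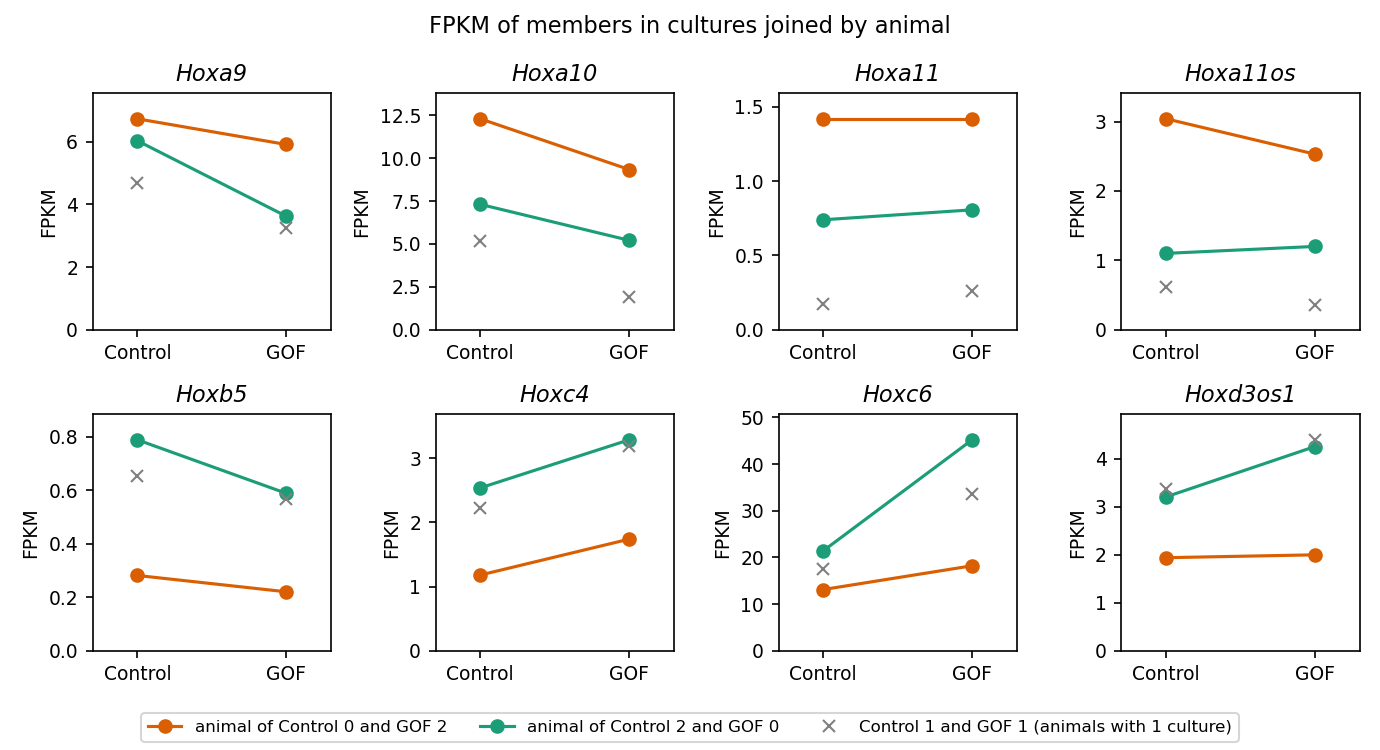
FPKM of 8 members in Control and GOF, with lines joining cultures of the same animal (orange, Control 0 and GOF 2; green, Control 2 and GOF 0) and crosses for Control 1 and GOF 1. For Hoxa9, Hoxa10, Hoxa11 and Hoxa11os the orange line lies above the green in both groups, and for Hoxb5, Hoxc4, Hoxc6 and Hoxd3os1 it lies below.

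No noncoding member was called in either table. Of the 9, 7 were tested in the all-gene table, with log2 fold changes from −0.79 to 0.41 and 1 at an unadjusted p under 0.05. In the lncRNA table the same number was tested and 0 were called by edgeR, against 9.36% of its 1389 genes in either direction, with 0 at an unadjusted p under 0.05 and 0 by DESeq2. Hotair had 1, 0 and 0 fragments in Control and 1, 0 and 1 in GOF, and Hottip had 1 fragment, in Control 1. RNA of either was therefore hardly detectable at this depth.

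By FPKM, Hotairm1 was the highest noncoding member of the all-gene table, with 8.99, 4.10 and 5.83 FPKM in Control and 8.05, 9.42 and 8.33 FPKM in GOF. The groups overlapped through Control 0 (log2 fold change 0.32, edgeR adjusted p = 0.557). By fragments it was not the highest, with 281 over the 6 libraries beside 1156 for Hoxb3os. Hoxb3os, whose exons overlap Hoxb2 and Hoxb3 on the opposite strand, was at 2.21, 2.80 and 2.65 FPKM in Control and 2.16, 1.74 and 1.31 FPKM in GOF. Its GOF libraries all lay below the controls, with a log2 fold change of −0.58 (edgeR adjusted p = 0.124).

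Hoxb5os was at 1.01, 2.09 and 1.40 FPKM in Control and 1.16, 0.814 and 0.816 FPKM in GOF, with a log2 fold change of −0.76 (edgeR adjusted p = 0.207). Hoxaas3, an antisense gene that spans Hoxa3 to Hoxa7, was at 0.479, 0.917 and 1.03 FPKM in Control and 0.396, 0.706 and 0.257 FPKM in GOF. Both genes overlapped between groups. Hoxaas2 was at 0.0999, 0.317 and 0.314 FPKM in Control and 0.330, 0.312 and 0.214 FPKM in GOF, and Control 0 was the lowest of the 6. Hoxd3os1, antisense to Hoxd3 and Hoxd4, was at 1.94, 3.37 and 3.21 FPKM in Control and 4.26, 4.4 and 2.0 FPKM in GOF. The low libraries were again Control 0 and GOF 2.

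The 2 tables did not assign the same fragments to every antisense gene. The library kit was stranded. The paper names standard settings for Cuffdiff without saying whether the strand was used, so fragments of a gene and its antisense partner may not be fully separated. Hotairm1, Hoxa11os and Hoxb5os had identical totals over the 6 libraries, of 281, 388 and 154 fragments. Hoxaas3 had 103 fragments in the all-gene table and 1040 in the lncRNA table, a ratio of 10.1 that ran from 7.5 to 16.8 by library. Hoxb3os had 1156 and 3474, a ratio of 3.01. Its fitted log2 fold change was −0.58 in the all-gene table and −0.24 in the lncRNA table, and that of Hoxaas3 was −0.79 and −0.09. The cause of the difference between the tables was not tested.

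**Figure D5:**
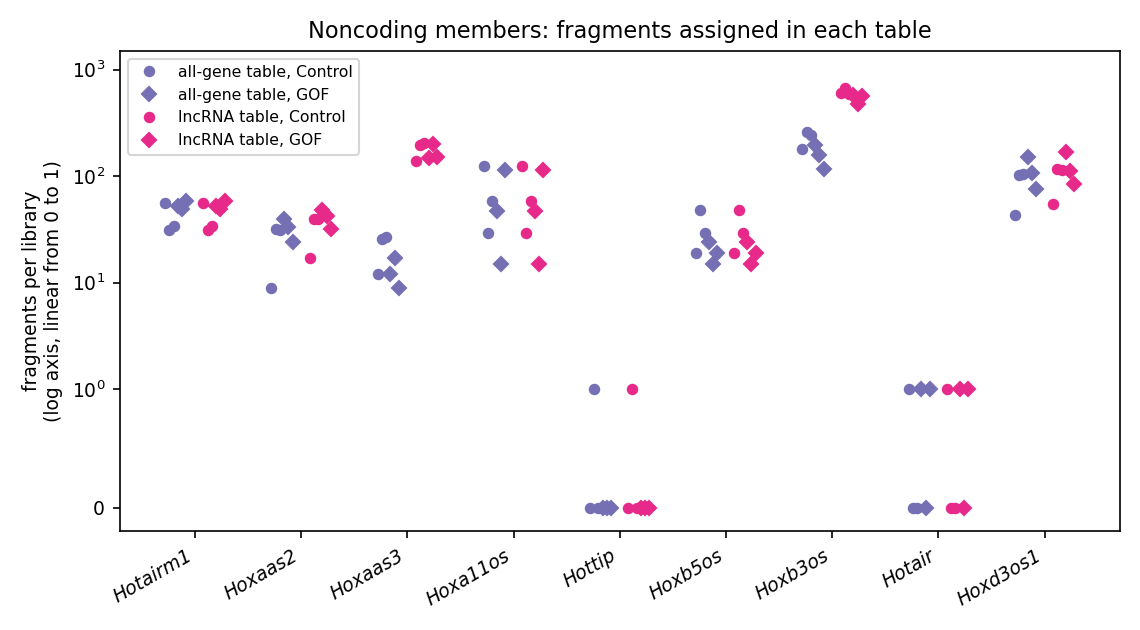
Fragments per library assigned to each noncoding member in the all-gene table (purple) and the lncRNA table (pink), with circles for Control and diamonds for GOF, on an axis that is linear from 0 to 1 and logarithmic above. Hoxaas3 and Hoxb3os lie 10.1 and 3.01 times higher in the lncRNA table over all libraries, and Hotair and Hottip hold at most 1 fragment in any library.

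Genes that act with or on the HOX genes were read against the shares of all genes called, 6.69% higher and 5.64% lower. Of 9 cofactor genes of the Pbx, Meis and Pknox families, whose proteins bind DNA together with HOX proteins, 1 was called lower and none higher. This was Pknox2, at 1.97, 2.44 and 2.07 FPKM in Control and 0.663, 0.400 and 0.668 FPKM in GOF, with a log2 fold change of −2.09 (edgeR adjusted p = 0.00115). Its groups were widely separate. None of 16 genes of the Polycomb complex PRC1, which keeps HOX genes silent, and none of 9 trithorax-type genes, which keep them active, was called. In PRC1, Pcgf3 alone passed the adjusted p (log2 fold change 0.62, edgeR adjusted p = 0.0274).

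Cdx1, Cdx2, Cdx4, Gsx1, Gsx2 and Pdx1, relatives of the HOX genes of which the Cdx genes activate them in the embryo, held at most 2 fragments per library, and Evx1 and Evx2, which lie beside HoxA and HoxD, at most 1. Another 40 genes are annotated within the clusters. Of these, 24 were at 0 in every library, among them the 6 microRNA genes Mir10a, Mir10b, Mir196a-1, Mir196a-2, Mir196b and Mir615, which libraries of long RNA are not made to capture. Of the 5 that could be tested, Gm15050 in HoxA passed the adjusted p without the fold (log2 fold change 0.95, edgeR adjusted p = 0.0472), at 1.86 to 2.52 FPKM in Control and 3.75 to 4.89 FPKM in GOF. Among 8 genes that flank the clusters, 5 were tested and none was called, Skap2 beside HoxA and Mtx2 beside HoxD included (0.11 and 0.29).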

How the data were processed

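RNA-seq was performed on 3 Control and 3 GOF libraries prepared with a stranded Illumina kit. Per the labels and the paper, reads were mapped to mm10 with TopHat and quantified with Cuffdiff, in versions not given in the sources used here. The estimated counts analysed were the fragments per gene and library that Cuffdiff assigned, deposited without scaling, and they were rounded. FPKM values were deposited by the authors after scaling by transcript length and between libraries. The all-gene and lncRNA tables were estimated separately and were tested separately. A further 6 columns of per-library values and the authors' own comparisons (fold changes and p-values) were not used. In the all-gene table, 32 genes with a failed estimate were left out, none of them a member.

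Symbols and coordinates came from GENCODE M21 (GRCm38), matched to 97.9% and 96.4% of the identifiers. Counts were fitted across all genes in R 4.3.3 with edgeR 4.0.16 (TMM, filterByExpr, quasi-likelihood test, Benjamini-Hochberg adjustment over all genes tested), and a call needs a fold change over 2 at an adjusted p under 0.05. The filter asks for about 10 fragments at the median library size in 3 libraries. The paper states that cells of each animal were kept as separate cultures, and p-values measure the spread between these cultures. The main fit treated the cultures as independent, although 2 animals gave a culture to each group. The script was tested on simulated data. Figures were drawn with matplotlib 3.10.9. In the check of pairing, deviations from the group means over 15462 genes correlated at −0.41, 0.05 and −0.44 for equal label numbers, and at 0.46 and 0.41 for cultures of the same animal, so label numbers were not used as pairs.

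The members, the lists of other genes and the promoter letters were chosen with earlier results of these data known. Values in every library were given for called members, for the highest member of each cluster, for the noncoding members and for paralogs of a called member, and other members are given where a sentence turns on them, as are Hoxa6, Hoxb3, Hoxc4, Hoxc6, Hoxd1 and Haglr, chosen after their values were seen. Alternatives were DESeq2 1.42.0, library totals, upper-quartile scaling, no low-count filter, a minimum of 1 FPKM in 3 libraries, limma 3.58.1 on log2(FPKM + 1) and log2(FPKM + 0.1), failed estimates kept, a block by label number or animal, and each library left out. Some members and markers of other cell types that count in totals are not reported here by name.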

Additional observations from a re-analysis of the deposited data

How the results depend on the processing

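The 4 members called higher became 2 with library totals, 2 with upper-quartile scaling, 2 with a minimum of 1 FPKM in 3 libraries (Hoxc5 among them, since Hoxc13 and Hoxd10 were not tested there) and 1 with limma on log2(FPKM + 1), which called Hoxc13 alone. Calls over all genes moved as well. Of 15462 genes tested, 1034 were called higher in the main fit, 977 with library totals and 979 with upper-quartile scaling. Limma on log2(FPKM + 1) called 481, the block by label number 793 and the fit without Control replicate 1 744. With the minimum of 1 FPKM, 639 of 12228 were called higher, and without a filter 1187 of 24494. The replicate block by label number left 2, although those numbers do not pair the samples. The animal block, in which the group difference rests on the 2 animals with both cultures, left 4 and changed no call. Leaving out 1 library gave 2 to 4, with 2 without Control replicate 1, and leaving out both Control replicate 0 and GOF replicate 2 (added after seeing the data) gave 5. DESeq2 called 4, limma on log2(FPKM + 0.1) 3 and the fit without a filter 6. The count of members called lower stayed at 0 and that of noncoding members in the lncRNA table at 0 under all alternatives. Hoxc13 kept its call in the alternatives that tested it, with log2 fold changes of 1.01 to 2.85, and Hoxd10 lost it with limma on log2(FPKM + 1) (0.38), a scale that compresses low levels by construction. The causes of the other changes were not tested.

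Leaving out 1 library turned the sign of 10 fitted values, none of them called. Without a library, Hoxa3 ranged from −0.36 to 0.19, Hoxa5 from −0.24 to 0.33, Hoxa11 from −0.56 to 0.87, Hoxa11os from −1.29 to 0.43, Hoxb4 from −0.16 to 0.12, Hoxb5 from −0.50 to 0.11, Hoxc10 from −0.09 to 0.75 and Hoxd3 from −0.12 to 0.97 in log2 fold change, and in the lncRNA table Hoxaas3 from −0.27 to 0.09 and Hoxa11os from −1.25 to 0.62. Without both Control replicate 0 and GOF replicate 2, Hoxb4 was at 0.01 and Hoxaas3 in the lncRNA table at 0.04. The small fragment numbers of Hoxa13, Hoxb13, Hoxd1 and Hoxd13 limit what can be said of them.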
